A study of Homo sapiens with 20 samples.

Results

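The chromatin of 10 genes of glycolysis, SLC2A1, HK1, HK2, PFKFB3, PFKP, ALDOA, GAPDH, ENO1, PKM and LDHA, was read in HCT116, a human colorectal carcinoma cell line, with and without the histone methyltransferase MLL4. The genes were chosen by name for their place in the pathway, 10 of the 19974 protein-coding genes of RefSeq on chromosomes 1 to 22 and X. For each gene, peaks were collected from the gene body plus 50 kb on each side, called its window here. The libraries were chromatin immunoprecipitations followed by sequencing from cells labelled MLL4WT (WT here) and MLL4KO (KO here). MLL4, the product of KMT2D, places a single methyl group on lysine 4 of histone H3, chiefly at enhancers. The labels name no agent that activates p53 in either genotype, and they do not say whether the KO cells are 1 clone or whether replicates came from separate cultures. Each genotype was sampled with 2 libraries for H3K4me3, for H3K27ac and for p53. For H3K4me1, MLL4 and MLL1 there was 1, and values of these 3 targets have no replicate check.

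Glycolysis splits glucose into pyruvate, which many tumour cells reduce to lactate even when oxygen is present. SLC2A1 encodes the glucose transporter GLUT1, HK1 and HK2 the hexokinases that trap glucose in the cell, and PFKP a phosphofructokinase that commits the sugar to the pathway. PFKFB3 makes fructose 2,6-bisphosphate, the activator of phosphofructokinase. ALDOA (aldolase), GAPDH (glyceraldehyde-3-phosphate dehydrogenase), ENO1 (enolase) and PKM (pyruvate kinase) carry the sugar on to pyruvate, and LDHA (lactate dehydrogenase) turns pyruvate into lactate. H3K4me3 marks active promoters, H3K27ac active promoters and enhancers, and H3K4me1 enhancers and the flanks of promoters.

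The lists held between 18388 and 20922 peaks for H3K4me3, between 61959 and 198757 for H3K27ac and between 24972 and 62248 for p53. Both H3K27ac lists of KO were shorter than both of WT, with 65050 and 61959 peaks against 139104 and 198757, while the median fold of the 4 lists lay between 4.56 and 4.80. The MLL4 list held 56770 peaks in WT and 278 in KO, and none of the 278 lay in a window of the 10 genes. As a check of the cell type, H3K4me3 lay at the gene starts of EPCAM, CDH1, KRT18 and CDX2 in all 4 libraries, in some of them at KRT8 and in none at KRT20, VIL1 and LGALS4. It was called at none of 7 markers of blood, fibroblasts, liver and glia. The read depth of the libraries is unknown. Fold enrichment is the authors' own value for each peak, the ratio of ChIP signal to local background. With 2 libraries against 2 an exact permutation test cannot give a p below 0.333, so folds were set side by side without a test, and a group was called lower only where every KO library lay below every WT library.

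At the gene starts, all 10 genes kept H3K4me3 and H3K27ac in every library, and H3K27ac was lower in KO at all 10. A gene start here is a start listed by RefSeq, and the value is that of the strongest peak within 1 kb of any of them. H3K4me3 was present in all 4 libraries at 62.7% of the 15812 protein-coding genes with a listed start. The fold of H3K27ac was lower in both KO libraries than in both WT libraries at 10 of the 10 genes, and at 88.0% of the 10265 genes with a peak in all 4 libraries, so the direction is that of most promoters. The median log2 difference, KO minus WT, was -1.37 over the 10 genes and -0.95 over all 10265, whose quartiles were -1.29 and -0.63. Between single WT and KO libraries the median of the 10 genes ranged from -1.61 to -0.66.

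At the sugar transporter and the hexokinases the drop in H3K27ac ranged widely. SLC2A1 (chr1:42925353-42958868) had H3K27ac folds of 25.1 and 34.0 in WT and of 4.70 and 12.8 in KO, a log2 difference of -1.91. HK1 (chr10:69270000-69401882) had 46 and 20.1 in WT and 13.6 and 12.4 in KO, a log2 difference of -1.23. HK2 (chr2:74834127-74893359) had 32.6 and 32.7 in WT and 22.4 and 20.8 in KO, and its log2 difference of -0.59 was the smallest of the 10. The WT and KO libraries did not overlap at any of the 3 genes, although the KO libraries of SLC2A1 differed from each other by more than those of HK1 or HK2.

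At HK1, H3K4me3 lay at some of the listed starts and not at others. RefSeq lists 7 starts for HK1, and H3K4me3 was called in all 4 libraries at 69318181 and 69319064 and in none at the other 5. The start at 69319064 carries 37 CG dinucleotides in the 300 bases from 250 before to 50 after it, more than 88.7% of listed promoters, and that at 69318181 carries 15. The 5 starts without H3K4me3 carry from 0 to 6. Some of these had other marks: the start at 69334614 had H3K27ac in all 4 libraries, with 7.19 and 13.2 in WT and 3.96 and 4.80 in KO, and that at 69315769 had an H3K27ac peak within 1 kb in all 4. Of the 5, the start at 69278496 had no peak of any target in any library and carries 1. The median over 34961 listed promoters is 14. Both promoters are shown from RefSeq GRCh38.p14, on the plus strand, with every CG in capitals, to set a start with H3K4me3 beside one with no peak.
HK1 start 69319064, chr10:69318814-69319113: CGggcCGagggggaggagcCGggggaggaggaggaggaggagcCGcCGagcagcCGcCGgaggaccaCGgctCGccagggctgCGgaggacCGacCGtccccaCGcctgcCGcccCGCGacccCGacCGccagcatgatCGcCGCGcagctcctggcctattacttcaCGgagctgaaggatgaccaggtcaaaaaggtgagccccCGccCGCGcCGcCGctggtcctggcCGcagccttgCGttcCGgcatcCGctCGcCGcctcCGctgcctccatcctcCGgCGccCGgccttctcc
HK1 start 69278496, chr10:69278246-69278545: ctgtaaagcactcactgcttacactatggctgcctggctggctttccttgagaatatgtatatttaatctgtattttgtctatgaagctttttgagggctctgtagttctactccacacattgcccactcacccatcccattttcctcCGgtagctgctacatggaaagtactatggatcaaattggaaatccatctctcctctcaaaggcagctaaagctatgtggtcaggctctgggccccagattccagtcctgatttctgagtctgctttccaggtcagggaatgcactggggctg
PFKP likewise had H3K4me3 at 3 of its 4 listed starts and none at 3104609. The promoter there holds 12 CG dinucleotides against 30 to 42 at the other 3. ALDOA did not follow this order. Its starts at 30064279 and 30064497 hold 10 and 6 CG dinucleotides and had H3K4me3 in all 4 libraries. The same H3K4me3 region covers its start at 30065760, which holds 35.

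At the regulators of the committed step PFKFB3 (chr10:6144921-6326637) had H3K27ac folds of 35.9 and 31.9 in WT and 21.7 and 17.6 in KO, a log2 difference of -0.79. PFKP (chr10:3067548-3136805) had 55.0 and 31.9 in WT and 28.4 and 7.58 in KO, a log2 difference of -1.51. Here too the genotypes did not overlap, but the lower WT library of PFKP was close to its higher KO library. Both listed starts of PFKFB3 had H3K27ac in all 4 libraries. The upstream start at 6144921 had the higher H3K27ac. At the start at 6202932 the KO libraries had 13.9 and 9.94, and the lower WT library had 14.9.

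In WT the enzymes that carry the sugar to pyruvate, ENO1, ALDOA, GAPDH and PKM, had the highest H3K27ac of the 10 starts in each library. In KO this order did not hold: GAPDH lay below HK2 and LDHA. ENO1 (chr1:8861000-8878686) had 149 and 119 in WT and 26.8 and 35.1 in KO. Its log2 difference of -2.12 was the largest drop of the 10. Its rank fell with it: 99.4% and 98.5% of promoters with a peak lay below ENO1 in the WT libraries, and 76.5% and 86.8% in the KO libraries. GAPDH (chr12:6534517-6538371) had 82.0 and 67.1 in WT and 18.7 and 19.9 in KO, a log2 difference of -1.94. The share of promoters below GAPDH went from 92.2% and 88.9% in WT to 57.0% and 60.4% in KO. PKM (chr15:72199029-72231591) had 76.3 and 59.2 in WT and 28.3 and 17.3 in KO, a log2 difference of -1.60. ALDOA (chr16:30064279-30070420) had 98.6 and 65.8 in WT and 41.6 and 42.6 in KO, a log2 difference of -0.94. ALDOA stayed near the top of the promoters, with 95.8% and 88.3% of them below it in WT and 92.9% and 92.7% in KO. LDHA (chr11:18394563-18408425), at the end of the pathway, had 68.9 and 46.5 in WT and 29.4 and 27.5 in KO, a log2 difference of -0.99.

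**Figure D1:**
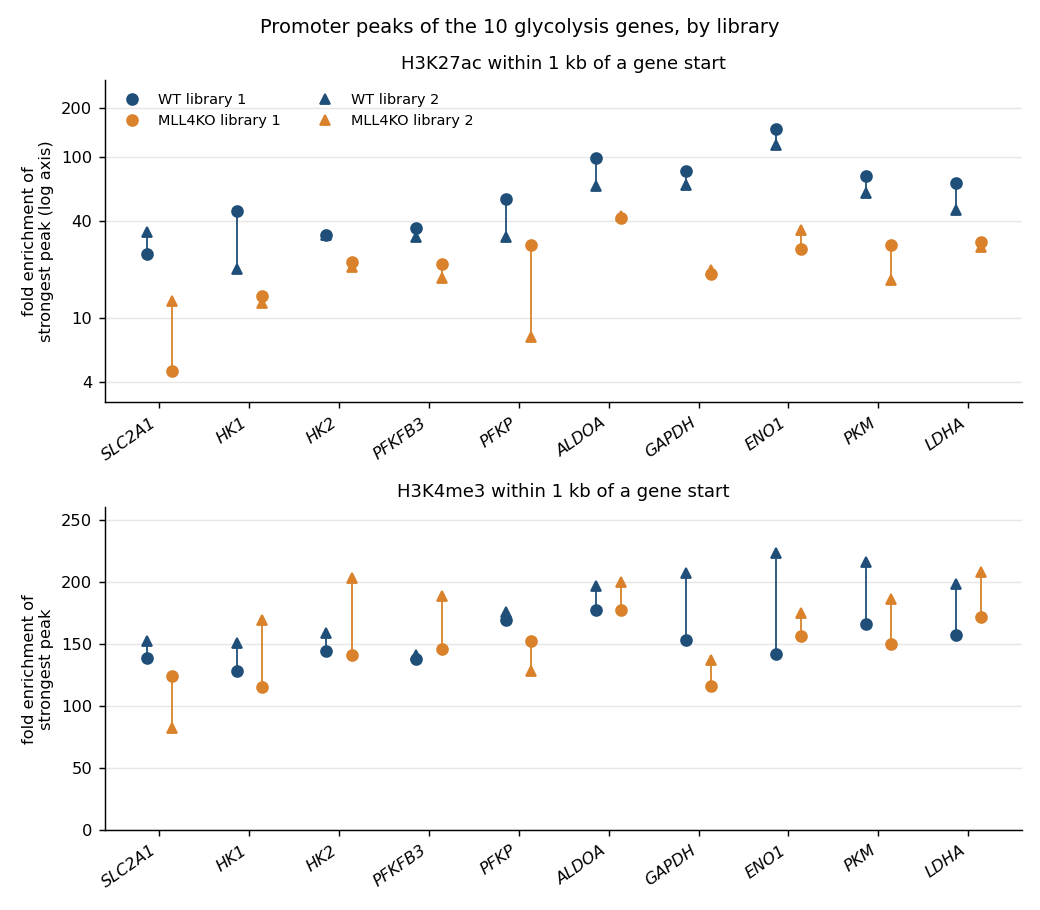
Fold enrichment of the strongest peak within 1 kb of a gene start for each of the 10 genes (x axis), for H3K27ac on a log axis and H3K4me3 on a linear axis. Circles and triangles are libraries 1 and 2, WT in blue and KO in orange, joined by a line. H3K27ac lies lower in KO at all 10 genes, from 149 and 119 to 26.8 and 35.1 at ENO1, while H3K4me3 overlaps between the genotypes at 6 genes.

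The width of the H3K27ac peak at the start moved less than its fold. It was smaller in both KO libraries than in both WT libraries at 3 of the 10 genes, PFKP, GAPDH and LDHA, and at 45.3% of all genes with a peak in every library. GAPDH narrowed most, from 7430 and 12679 bp in WT to 4323 and 4373 bp in KO. LDHA went from 3049 and 2871 bp to 1954 and 2045 bp.

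H3K4me3 at the same starts differed little between the genotypes. Its fold was lower in KO at 3 of the 10 genes, SLC2A1, PFKP and GAPDH, against 21.5% of the 9907 genes with a peak in all 4 libraries. It was higher at PFKFB3 alone, 1 of the 10, against 10.3%. GAPDH had H3K4me3 folds of 153 and 207 in WT and 116 and 137 in KO. SLC2A1 had 139 and 152 in WT and 124 and 82.2 in KO. PFKFB3 had 138 and 141 in WT, below the 146 and 189 of KO. The median log2 difference was -0.05 over the 10 genes and -0.06 over all 9907, with single pairs of libraries between -0.26 and 0.24. At the other 6 genes the genotypes overlapped, ENO1 among them, with 142 and 223 in WT and 156 and 175 in KO.

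H3K4me1, which flanks active starts, lay within 1 kb of a start at all 10 genes in the WT library and at 9 in the KO library. ENO1, with a fold of 5.87 in WT, had none in KO. At 8 of the other 9 genes the fold was lower in KO, against 82.8% of genes with a peak in both libraries. GAPDH fell furthest, from 11.0 to 3.18, and SLC2A1 was the exception in fold, with 9.58 in WT and 10.6 in KO. Its peak narrowed all the same, from 5231 to 1033 bp. The peak was narrower in KO at all 9 genes, against 7028 of the 8859 genes with a peak in both libraries. The median log2 difference in width was -1.64, against -1.12. The median log2 difference in fold over the 9 genes was -0.83, and -0.49 over all genes with both peaks.

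MLL4 itself was called within 1 kb of a listed start at 7 of the 10 genes in WT, against 37.8% of genes with a listed start, and at none in KO. The 3 without were HK2, PFKFB3 and ENO1. SLC2A1 had 6.67, GAPDH 5.67, and HK1, PFKP, PKM and LDHA 5.00 each, all above the median of 4.17 over the whole list of peaks. Among promoters with an MLL4 peak, 83.8% lay below SLC2A1, 69.3% below GAPDH and 47.9% below the genes at 5.00. The HK1 and PFKP peaks of 5.00 lay at starts without H3K4me3, HK1 at 69334614 and PFKP at 3104609. ALDOA was apart with 23.3, in a peak that began near its start at 30065760 and ran through the gene.

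MLL1, the product of KMT2A and another H3K4 methyltransferase, was called at the starts of all 10 genes in both genotypes, and its fold was higher in KO at 10 of the 10, against 97.9% of the genes with a peak in both lists. PKM had 34.4 in WT and 92.6 in KO, PFKP 23.6 and 71.7, and PFKFB3 15.6 and 66.7, the largest log2 difference at 2.1. GAPDH was the least changed, with 14.7 in WT and 15.7 in KO, a log2 difference of 0.10. The median was 1.52 over the 10 genes and 1.65 over all genes, with quartiles of 1.18 and 2.05, so GAPDH lay below the lower quartile. Each genotype had 1 MLL1 library, and the median fold of the whole list was 4.62 in WT and 6.48 in KO. The part of this difference between the lists in the differences at the starts was not tested.

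**Figure D2:**
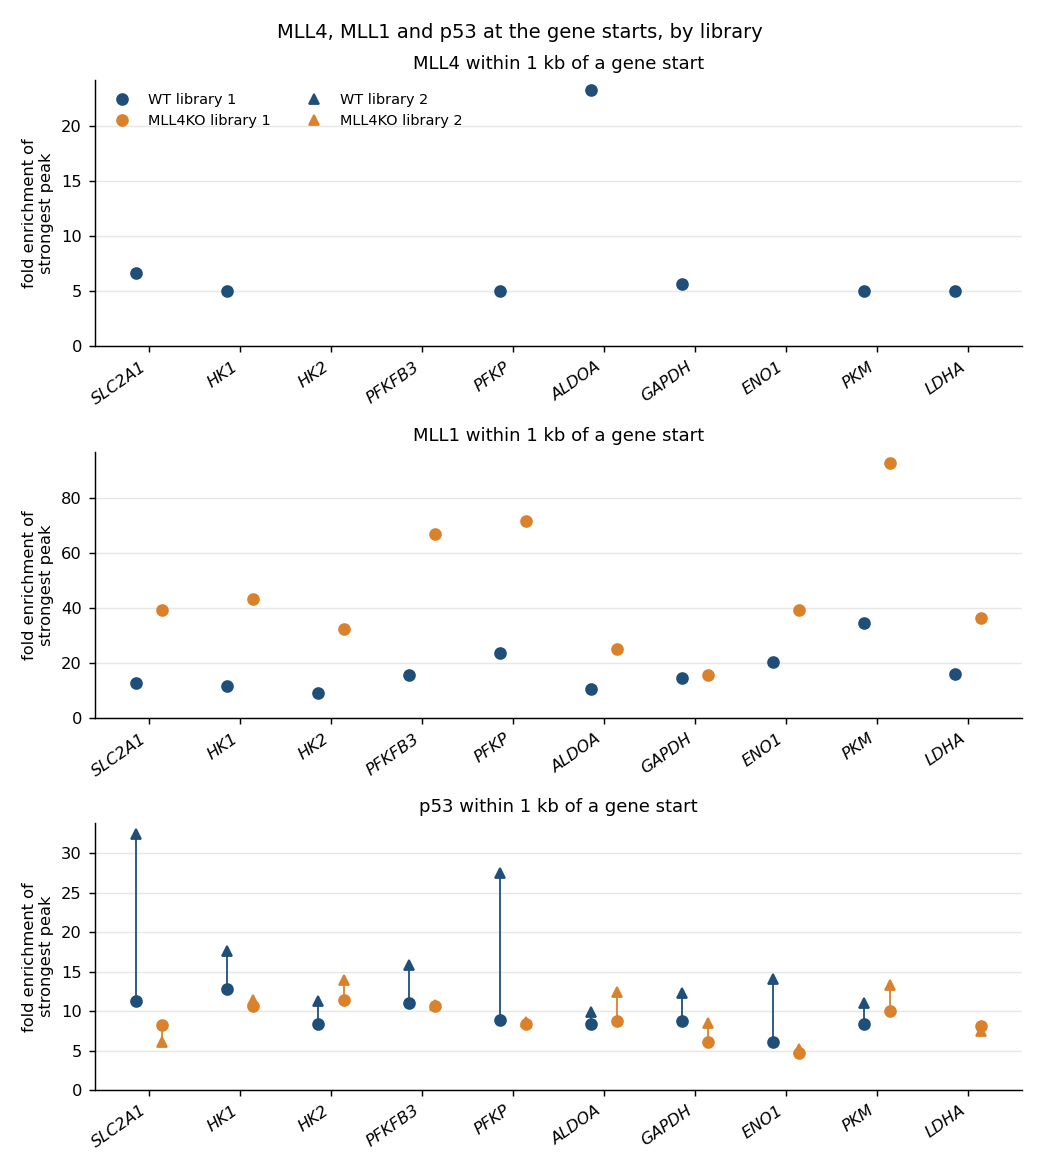
Fold enrichment of the strongest MLL4, MLL1 and p53 peak within 1 kb of a start of each gene (linear axes from 0), WT in blue and KO in orange. A gene without a symbol had no peak in that library. MLL4 has no KO symbol, MLL1 is higher in KO at each gene with GAPDH nearly level at 14.7 and 15.7, and LDHA has p53 in the KO libraries only.

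The tumour suppressor p53, a transcription factor known to restrain glycolysis, was called in both WT libraries at 9 of the 10 starts, against 49.9% of genes with a listed start. The tenth was LDHA, where p53 was called in both KO libraries and no WT library, with folds of 8.06 and 7.42. Genes with that pattern made up 14.5% of the 9022 with p53 in both KO libraries, so it is not rare in these lists. The KO peak lay at chr11:18394362-18395040, and its summits were 14 bp downstream and 31 bp upstream of the LDHA start. The KO lists were the shortest and the longest of the 4 p53 lists, with 24972 and 62248 peaks, and the WT lists held 36525 and 32631. Elsewhere in the LDHA window, WT library 2 had 4 p53 peaks of up to 26.1 and WT library 1 had none.

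The promoter of LDHA at this start is shown with GAPDH and HK2, because the 3 share the hexamer CACGTG and differ in what was called there. LDHA had MLL4 in WT and p53 in KO only, GAPDH had MLL4 in WT and p53 in all 4 libraries, and HK2 had p53 in all 4 libraries and no MLL4. Capitals mark ACGTG on either strand, the core of the hypoxia response element. CACGTG, the E-box known as a site of MYC, holds it on both strands. The sequences are from RefSeq GRCh38.p14, on the plus strand.
LDHA, chr11:18394313-18394612: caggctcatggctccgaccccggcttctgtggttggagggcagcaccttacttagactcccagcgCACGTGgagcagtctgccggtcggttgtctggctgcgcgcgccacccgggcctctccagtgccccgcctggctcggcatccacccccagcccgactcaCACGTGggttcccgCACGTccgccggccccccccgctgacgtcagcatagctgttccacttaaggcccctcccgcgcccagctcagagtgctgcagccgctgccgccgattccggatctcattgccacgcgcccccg
GAPDH, chr12:6535014-6535313: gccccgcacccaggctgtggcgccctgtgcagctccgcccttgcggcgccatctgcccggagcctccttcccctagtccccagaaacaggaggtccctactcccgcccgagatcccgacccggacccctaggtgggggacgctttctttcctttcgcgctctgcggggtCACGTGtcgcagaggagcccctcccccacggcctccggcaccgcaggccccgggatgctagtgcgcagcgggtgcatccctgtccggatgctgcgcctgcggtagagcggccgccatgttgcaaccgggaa
HK2 start 74835170, chr2:74834920-74835219: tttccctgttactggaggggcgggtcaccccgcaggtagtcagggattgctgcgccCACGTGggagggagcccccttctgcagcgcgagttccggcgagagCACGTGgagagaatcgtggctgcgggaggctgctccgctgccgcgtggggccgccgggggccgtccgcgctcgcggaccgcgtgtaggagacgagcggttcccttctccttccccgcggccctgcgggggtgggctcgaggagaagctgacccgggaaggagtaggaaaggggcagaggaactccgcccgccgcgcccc
ACGTG was found at a listed start of 6 of the 10 genes (HK2, PFKFB3, PFKP, ALDOA, GAPDH and LDHA), at 9 of their 24 listed starts (37.5%), against 21.4% of 34961 listed promoters. CACGTG was found at 5 of the 10 genes, all but PFKP of those 6, and at 5 of the 24 starts (20.8%), against 7.27% of promoters. Starts of 1 gene can lie close enough to share sequence. LDHA held 2 copies of CACGTG and 5 matches to the shorter word. The core of the GC box, GGGCGG on either strand, was found at 1 or more starts of all 10 genes and at 15 of the 24 starts (62.5%), against 45.0% of promoters. TATAAA was found at SLC2A1 alone, 1 of the 24 starts (4.17%), against 11.5%. The consensus decamer of p53 was found at HK1, in 2 of the 24 promoters (8.33%), both without H3K4me3 and 5 bp apart, against 6.63% of all promoters. A match is a description of the letters only.

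At the 9 genes with p53 in all 4 libraries, the fold was lower in both KO libraries at 6, against 42.9% of all such genes, and higher at HK2 alone, against 5.95%. HK2 had p53 folds of 8.31 and 11.3 in WT and 11.4 and 14 in KO, so its genotypes barely separated. SLC2A1 had 11.3 and 32.4 in WT and 8.20 and 6.12 in KO, and PFKP 8.91 and 27.5 in WT and 8.37 and 8.67 in KO. At both, WT library 2 stood far above the other 3. In the whole list WT library 2 had the highest median fold, 12.0 against 7.55, 5.62 and 5.08. The p53 peaks were wider in KO at 9 of the 9 genes, against 53.4% of the 6745 genes with p53 at a start in every library. GAPDH widened from 595 and 363 bp to 1355 and 2003 bp. At ENO1 the strongest peak measured 192 and 428 bp in WT and 1516 and 1169 bp in KO. Each WT library had separate p53 peaks on either side of the ENO1 start, and these 2 WT widths belong to different sides. In each KO library a peak reached across the start and overlapped both places. PKM widened from 474 bp in both WT libraries to 790 and 1025 bp. The 9 genes thus shared a wider p53 peak in KO with a fold that mostly did not rise.

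Inside the genes, 5 of the 10 carried a wide and strong MLL4 peak in WT, at ALDOA, GAPDH, ENO1, PKM and LDHA. A peak of at least 10-fold and 1 kb lay over 0.931% of the 19974 protein-coding genes, and 267 of the 56770 MLL4 peaks of WT met both limits, which were chosen after the values were seen. Among 28 other genes of the pathway, PGK1 (phosphoglycerate kinase) alone had such a peak. All 5 genes encode enzymes that act from aldolase on to lactate dehydrogenase, and none of SLC2A1, HK1, HK2, PFKFB3 and PFKP had such a peak. The median MLL4 peak was 225 bp wide.

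GAPDH had the strongest, 38.0-fold over chr12:6536493-6538358, ranked 58 in the list by fold, which ended 13 bp before the gene's 3′ end. ENO1 had 27.5 over chr1:8863233-8868059, a width of 4827 bp that began 10627 bp into the gene and ended 2233 bp before its 3′ end. ALDOA had 23.3 over chr16:30065641-30070409, which covered 77.6% of the gene and ended 11 bp before its 3′ end. LDHA had 21.7 over chr11:18402841-18407828, a width of 4988 bp that ended 597 bp before the 3′ end, and PKM had 17.7 over chr15:72206726-72208895, which lay 7697 bp from the 3′ end. The ALDOA peak began 1362 bp into the gene, across the most downstream of its listed starts, and the other 4 began further from a start. At 4 of the 5, PKM apart, it ended within 2233 bp of the 3′ end of the gene. PKM had a weaker peak past both limits as well, 14.6-fold and 1501 bp wide over chr15:72199102-72200602, which did lie at its 3′ end. The remaining windows had their highest MLL4 peak at 8.34 near HK1 (chr10:69408653-69409076), 6.67 at the SLC2A1 start and near PFKP (chr10:3170660-3171160), and 5.84 in HK2 (chr2:74887901-74889405) and PFKFB3 (chr10:6164046-6164556). The MLL4 list comes from 1 WT library against 1 input, and neither the signal of the input nor the level of transcription was analysed here, so their part in these gene-body peaks was not tested.

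**Figure D3:**
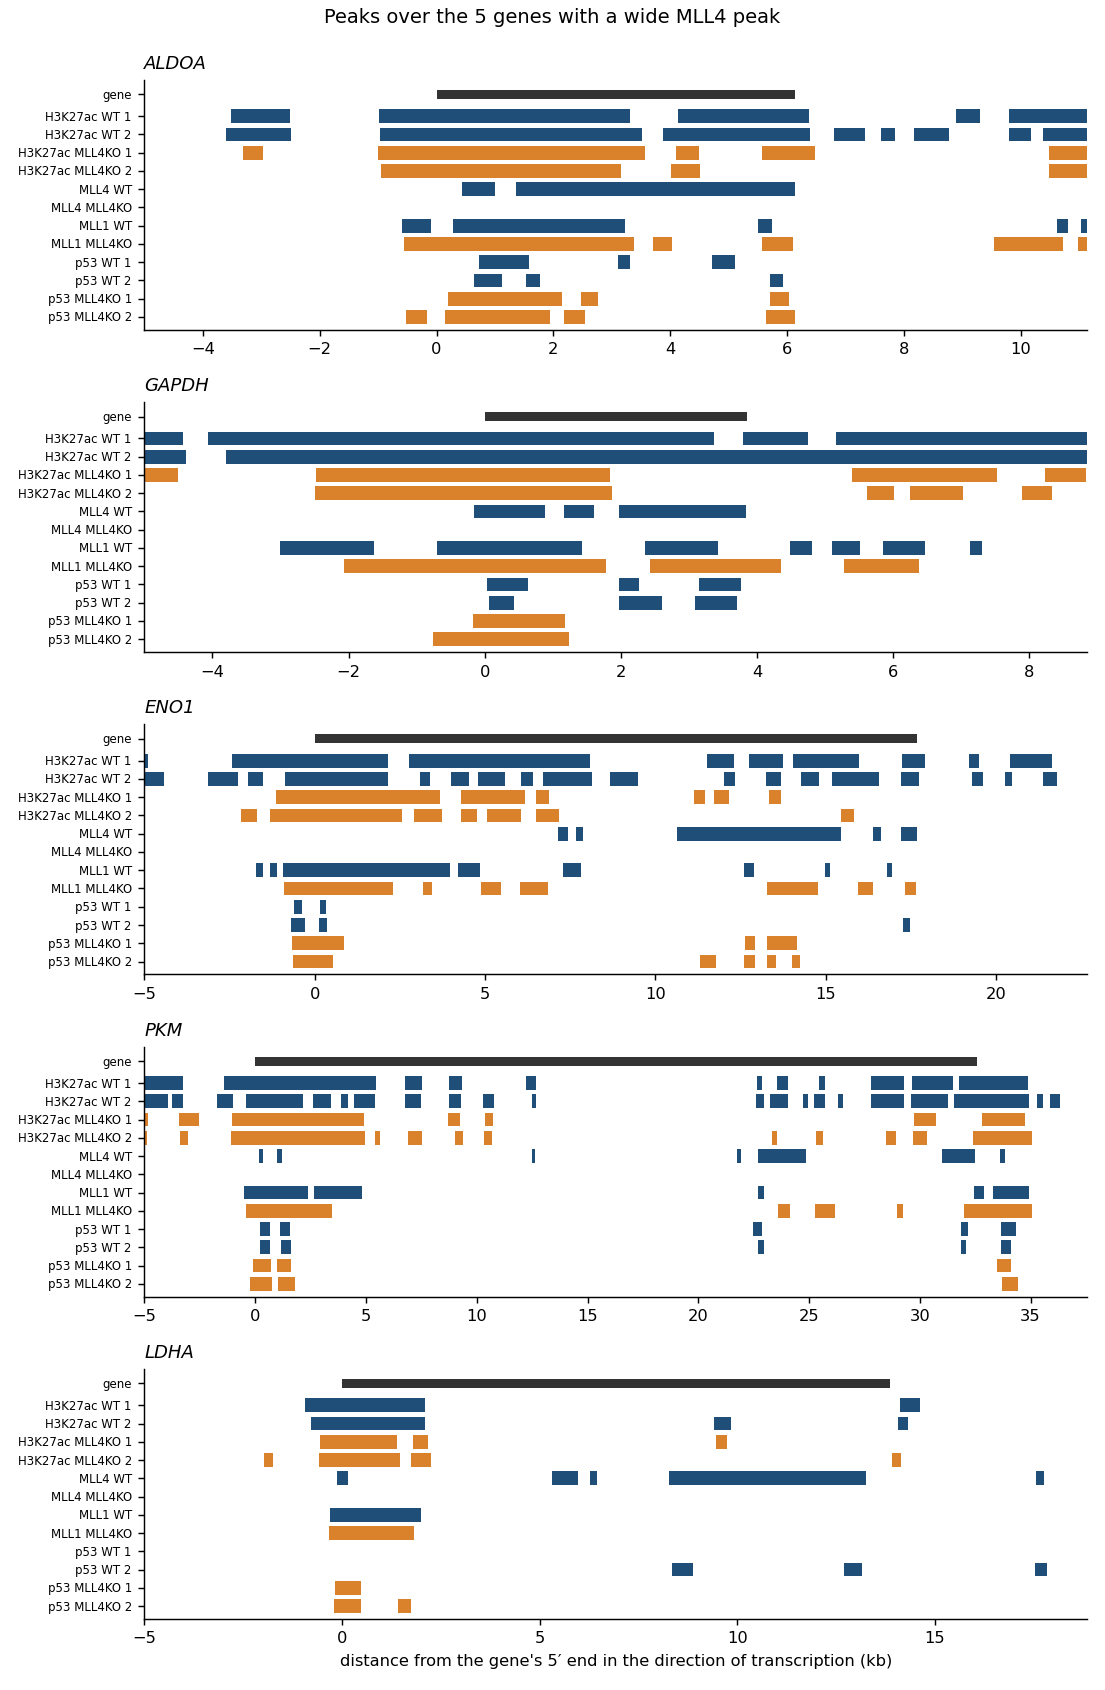
Peaks over ALDOA, GAPDH, ENO1, PKM and LDHA and 5 kb on each side, 1 row per library of H3K27ac, MLL4, MLL1 and p53, as distance in kb from the gene's 5′ end in the direction of transcription. The black bar is the gene, blue bars are WT peaks and orange bars KO peaks, with no height scale. MLL4 of WT covers the 3′ part of ALDOA, GAPDH, ENO1 and LDHA in a wide peak, and PKM in 2 separate ones, and the KO row lacks them.

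Other targets were called over the same stretches. At ALDOA and GAPDH the stretch reached into the peaks of the gene start, so the highest values there are those of the start, with H3K27ac of 98.6 and 65.8 in WT at ALDOA and 82.0 and 67.1 at GAPDH, and H3K4me3 in all 4 libraries at both. In KO no H3K27ac was called on the GAPDH stretch. At ENO1, PKM and LDHA the folds were low and H3K4me3 was not called. H3K4me1 had 4.86 in WT and 3.67 in KO over the LDHA stretch, 7.32 and 3.72 over that of ENO1, and 5.70 and 3.40 over that of PKM. H3K27ac had 6.90 and 5.37 in WT and 4.0 and 3.44 in KO over the ENO1 stretch. MLL1 had 3.76 in WT and 6.44 in KO there, and none in either genotype over that of LDHA. Over the LDHA stretch H3K27ac was called at 4.06 in WT library 2 and at 3.01 in KO library 1 only, and p53 in WT library 2 alone, at 4.23 and 3.35.

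The p53 regions of WT that were missing from KO lay inside 2 of these genes. A region here joins the overlapping peaks of all libraries of a target, and it counts as lost where all WT lists and none of the KO lists hold it. The reverse is a gained region, and a retained one is in all lists. In the 10 windows 4 of 30 p53 regions were lost, 13.3% against 12.7% in the genome, and 9 of 36 were gained, 25% against 17.6%. All 4 lost regions lay inside GAPDH or PKM and overlapped an MLL4 peak of WT, whereas 20.4% of the 3152 lost p53 regions of the genome did. Retained p53 regions overlapped one at 10 of 21 in the windows (47.6%) and at 52.7% in the genome. For gained regions it was 4 of 9 (44.4%) and 29.1%. The 4 lost regions come from only 2 genes, and the p53 and MLL4 lists of WT share 1 input, whose part was not tested. GAPDH lost chr12:6536493-6537113, with folds of 5.47 and 7.16, and chr12:6537610-6538278, with 3.66 and 3.51. PKM lost chr15:72208640-72209142, with 5.38 and 5.16, and chr15:72199435-72199745, with 5.98 and 4.57. The latter overlapped the weaker of these MLL4 peaks of PKM. ENO1 went the other way, with 2 regions gained under its MLL4 peak, chr1:8864445-8865417 with 4.18 and 4.88 and chr1:8865764-8866069 with 4.62 and 3.49. These folds lie low in the lists. Without KO library 2 the lost share was 30.0%, without WT library 1 it was 26.8%, and without KO library 1 the gained share was 54.8%, so the p53 counts rest on single libraries.

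Away from gene starts, 181 H3K27ac regions of the 10 windows were called in both WT libraries, and 92 of them were called in no KO library, 50.8% (Wilson 95% interval 43.6 to 58.0). Distal means more than 1 kb from every gene start used. In the genome 62.8% of distal regions were lost. Another 39 were retained and 2 were gained, 4.55% of the 44 called in both KO libraries, against 5.36%. The windows hold from 0 other protein-coding genes (SLC2A1, HK2) to 9 (ALDOA), so a distal region cannot be assigned to the gene whose window holds it. The WT lists were longer than the KO lists. With every list cut to the length of the shortest by q-value, 13 of 57 regions were lost, 22.8%, against 30.3% in the genome.

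The genes differed in how much of this they lost. HK2 lost 11 of 14 distal regions, PFKP 18 of 27, PFKFB3 15 of 25 and HK1 19 of 33. ENO1 lost 8 of 17, PKM 8 of 18 and ALDOA 6 of 15. GAPDH lost 4 of 14, SLC2A1 3 of 15 and LDHA 0 of 3. The 4 genes with the highest shares, HK2, PFKP, PFKFB3 and HK1, also have the longest windows, from 159 to 282 kb, against 104 to 134 kb for the other 6.

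**Figure D4:**
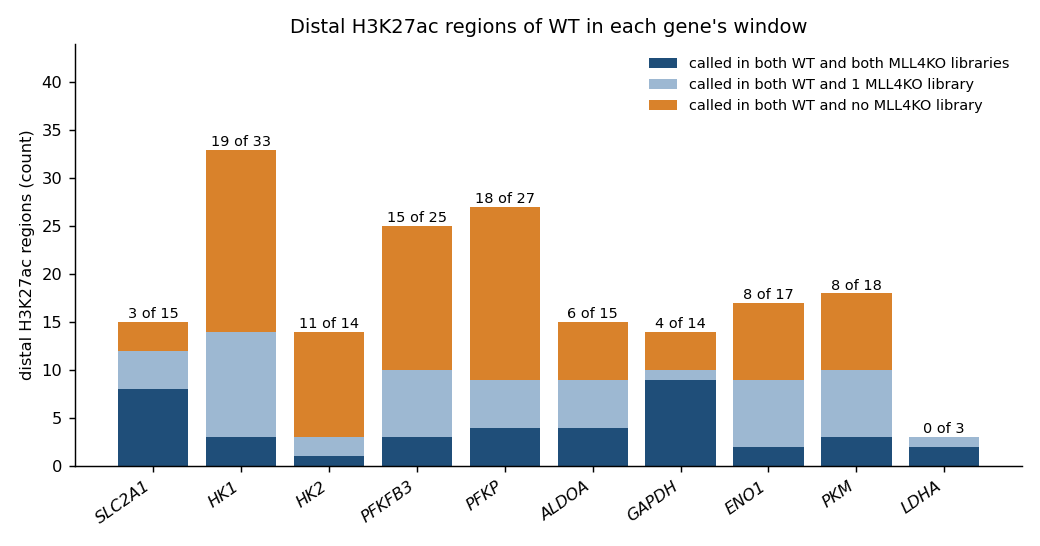
Number of distal H3K27ac regions called in both WT libraries in each gene's window, split by how many KO libraries also called them. The orange part is lost, and the label gives lost of all; HK2 lost 11 of 14, SLC2A1 3 of 15 and LDHA 0 of 3.

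Loss followed the fold in WT. A peak below the calling limit counts as absent, so a region weak in WT needs a smaller fall to count as lost. The part of this limit in the order was not tested. Of regions with a mean WT fold under 4, 23 of 33 were lost (69.7%), of those from 4 to 6, 57 of 89 (64.0%), of those from 6 to 10, 11 of 39 (28.2%), and of those at 10 or more, 1 of 20 (5.00%). The same classes of the genome lost 87.6%, 75%, 38.4% and 7.86%. In each class the windows of the 10 genes lost a smaller share than the genome, and the genome's value lay outside the Wilson interval of the lowest 2 classes only, at 52.7 to 82.6 and 53.7 to 73.2. Regions with an MLL4 peak of WT were lost in 12 of 28 cases (42.9%), and those without in 80 of 153 (52.3%). The genome had the same order, 45.6% and 65.3%. Of 16 distal regions that overlapped an H3K4me3 peak, 0 were lost, with a Wilson upper bound of 19.4%, against 15.6% in the genome. Regions without H3K4me1 in WT were lost in 29 of 41 cases (70.7%) and those with it in 63 of 140 (45.0%), in the order of the genome, 81.1% and 51.1%. In the windows these groups also differed in median WT fold. It was 18.9 with H3K4me3 and 4.90 without, 5.78 with MLL4 and 5.04 without, and 5.43 with H3K4me1 and 4.48 without. The part of fold in these splits was not tested.

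**Figure D5:**
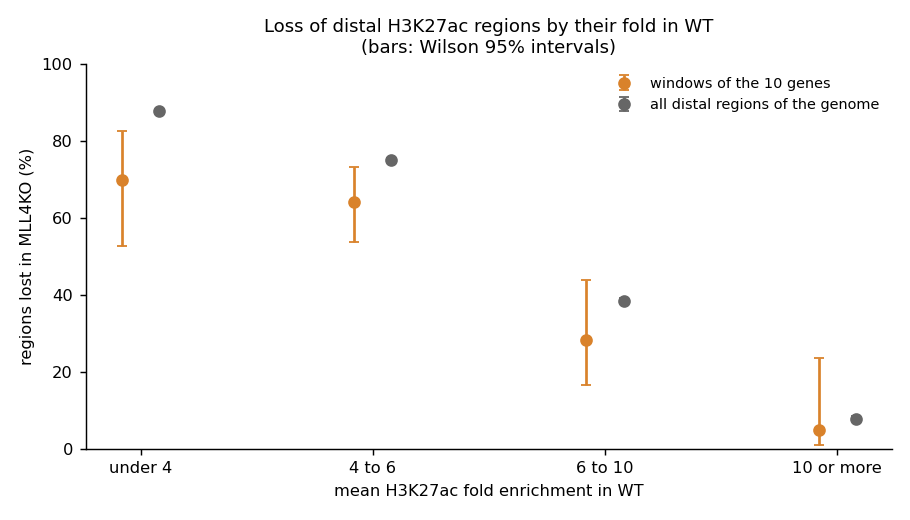
Share of distal H3K27ac regions lost in KO (y axis, percent) by mean fold in WT (x axis, 4 classes), for the windows of the 10 genes in orange and the genome in grey. Bars are Wilson 95% intervals over regions. Both series fall from left to right, to 5.00% and 7.86% at 10-fold or more.

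The strongest distal H3K27ac of the 10 windows lay inside PFKFB3, at chr10:6162742-6165239, 17821 bp from the nearest start. It had 87.9 and 74.6 in WT and 22 and 25.9 in KO, so it stayed called at a lower fold. The same place carried H3K4me3 at 185 and 197 in WT and 111 and 104 in KO, p53 in all 4 libraries, and the MLL4 peak of 5.84. In WT this H3K4me3 was above the 138 and 141 at the listed starts of PFKFB3, and in KO below their 146 and 189. Whether an unlisted start lies here was not tested. The next PFKFB3 region, chr10:6221184-6224400, with 8.69 and 15.3 in WT and an MLL4 peak, was lost, the only region of mean fold 10 or more that was. PFKFB3 therefore held the strongest retained and the strongest lost region of the 10 windows.

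At SLC2A1 the strongest retained region was chr1:42923256-42925815, over the 3′ end of the gene, with 44.8 and 34.4 in WT and 26.2 and 26.5 in KO. H3K4me3 was called there too, at 86.6 and 78.8 in WT and 93.2 and 96.0 in KO. Its strongest lost region, chr1:42979755-42980662, lay outside the gene and had 8.39 and 8.36. SLC2A1 also had 1 of the 2 gained regions, chr1:43002528-43003202, with 3.67 and 4.80 in KO, near the limit of calling.

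Among the hexokinases, HK1 retained chr10:69405841-69409378, downstream of the gene, with 21.8 and 22 in WT and 17.3 and 11.8 in KO, and lost chr10:69375311-69376134 inside it, with 8.09 and 5.93. HK2 retained only chr2:74842802-74846198, inside the gene, with 4.82 and 13.2 in WT and 5.79 and 6.63 in KO, where the genotypes overlapped. Its strongest lost region was chr2:74863886-74864336, with 5.10 and 9.86 and an MLL4 peak of WT. PFKP retained chr10:3092803-3096806 inside the gene, with 12.9 and 23.5 in WT and 5.98 and 7.94 in KO, and lost chr10:3121926-3125295, with 7.49 and 8.36.

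From aldolase on, ENO1 retained chr1:8898610-8900978, 19924 bp upstream of its start, with 22.9 and 22 in WT and 5.97 and 5.53 in KO. It lost chr1:8883111-8885650, with 5.40 and 6.49. GAPDH retained chr12:6549429-6553441, with 9.29 and 12.5 in WT and 5.57 and 4.37 in KO, and lost chr12:6581679-6582650, with 3.97 and 4.25. ALDOA retained chr16:30080691-30081613, with 6.60 and 7.99 in WT and 6.66 and 5.17 in KO, and lost chr16:30049967-30051325, with 5.33 and 5.37. The ENO1 region thus came down to near the level of the weak ones at GAPDH and ALDOA.

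PKM retained chr15:72234125-72238806, 2935 bp upstream of its start, with 24.4 and 21.8 in WT and 13.6 and 19.4 in KO. It lost chr15:72178834-72181164, with 6.90 and 9.48, and had the other gained region, chr15:72274951-72275301, with 3.53 and 6.30. LDHA differed: its retained region chr11:18382727-18385425, 9138 bp upstream, had 22.7 and 19.6 in WT and 18.1 and 30.1 in KO, so KO was not lower there. Over the 39 retained distal regions of the 10 windows the median log2 difference was -0.55, against -0.71 in the genome.

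H3K4me1 away from starts was lost at 110 of 135 regions of the 10 windows, 81.5% (Wilson 95% interval 74.1 to 87.1), against 87.1% in the genome, and 6 of 31 were gained, 19.4% against 35.5%. PFKFB3 lost 27 of 32, HK1 19 of 21, PFKP 14 of 16, ENO1 12 of 17 and PKM 10 of 12. SLC2A1 lost 7 of 9, ALDOA 6 of 7, GAPDH 6 of 6, HK2 5 of 9 and LDHA 4 of 6. With lists of equal length 25 of 45 were lost, 55.6%, against 70.8% in the genome.

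H3K4me3 was lost at 4 of 35 regions, 11.4% against 5.35% in the genome, and gained at 0 of 33, against 2.52%. The 4 lay away from gene starts, 3 near SLC2A1 and 1 near HK1. At SLC2A1 they were chr1:42936324-42936833 with 6.21 and 5.08, chr1:42940759-42941570 with 6.86 and 6.36, and chr1:42967182-42967552 with 7.01 and 4.54. At HK1 it was chr10:69222437-69222800 with 4.37 and 3.30. These folds are small beside the strongest H3K4me3 peak at the starts of each gene, which was 82.2 or more. Without WT library 1 or without WT library 2 the lost share was 24.4%.

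MLL1 regions turned over in the windows as they did in the genome. Of 64 called in WT, 33 were lost, 51.6% against 55.4%, and of 57 called in KO, 26 were gained, 45.6% against 48.3%. ENO1 lost 8 of 10 and gained 6 of 8, PKM gained 4 of 7 and ALDOA 4 of 11. At ENO1 the lost regions had folds of 3.22 to 5.37 and the gained ones of 3.37 to 6.44. The region at its start was retained, with 20.5 in WT and 39.2 in KO. Among peaks with a −log10 q-value of at least 5, 5 of 30 were lost, 16.7% against 11.8%, and 10 of 35 gained, 28.6% against 34.2%. All 78 MLL4 regions of WT in the windows were absent from KO, against 99.8% in the genome. They numbered from 4 at HK2 to 12 at ALDOA.

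By length covered, the windows of the 10 genes followed all protein-coding genes for the marks of enhancers. The median window kept 42.9% of its WT length of H3K27ac peaks in KO, against 39.0% over all genes, and 27.1% of its H3K4me1, against 27.8%. H3K4me3 stood at 98.9%, against 110%. For p53, 9 windows had peaks in every WT library, LDHA excepted, and the covered length was larger in both KO libraries at 8 of them, against 44.8% of all genes, with a median of 221% against 145%.

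The other genes of the pathway, 28 in all, showed the same direction at their starts. They include isoenzymes of other tissues, and for 5 without a listed start either gene end was used. H3K27ac was lower in KO at 17 of the 18 with a peak in every library, against 88.0% of all such genes. The median log2 difference was -1.17, against -0.95 over all such genes. BPGM (bisphosphoglycerate mutase) alone was higher, with 2.55 and 4.45 in WT and 6.61 and 7.73 in KO. At 3 of the 22 genes with H3K27ac in both WT libraries it was called in no KO library, against 1357 of 12299 genes. SLC16A3, a lactate exporter, had 119 and 110 in WT and 77.7 and 62.5 in KO. TPI1 (triosephosphate isomerase) had 108 in both WT libraries and 39.5 and 31.8 in KO. ENO3, the muscle enolase, had 131 and 91.4 in WT and 34.0 and 38.7 in KO, and PGAM1 (phosphoglycerate mutase) 126 and 82.8 in WT and 32.9 and 35.9 in KO. At each of these 4 genes the WT and KO libraries did not overlap. MLL1 was higher in KO at 15 of 16, against 97.9% of all genes with a peak in both lists. H3K4me3 was lower at 8 and higher at 3 of 17, against 21.5% and 10.3%. Windows of these genes overlap each other and, at HK1 and LDHA, those of the 10. With each region counted once and those of the 10 windows left out, 113 of 246 distal H3K27ac regions were lost, 45.9% against 62.8% in the genome. Of the 83 called in both KO libraries 0 were gained, against 5.36%. By window, GPI (glucose-6-phosphate isomerase) lost 15 of 18, PGAM1 10 of 17 and GAPDHS, the sperm isoenzyme, 10 of 17.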

How the data were processed

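Peak lists from 18 ChIP-seq libraries were used, with positions on hg38. Per the submitters' processing notes, peaks were called with MACS2 2.1.1, and per the peak names in the deposited lists each library was called alone against the input of its genotype. The sources used here give no aligner or filters, and the 2 inputs were not analysed here. The authors' fold enrichment is a ratio of ChIP signal to local background. The −log10 values of p and q come with each peak as MACS2 wrote them for the deposited lists. The deposited score follows the −log10 q-value, and the narrow lists also hold the summit offset. H3K4me1 lists are broad.

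All deposited peaks of chromosomes 1 to 22 and X entered the comparisons. Gene bodies are from RefSeq GRCh38.p14, and starts from its promoter table, which lists starts for 15812 of 19974 protein-coding genes. Both ends of the other genes were used when regions were called distal. Peaks of a target were merged where they overlapped by at least 1 bp. Percentages beside members are over the genome under the same rule. Shares have Wilson 95% intervals over regions, which cover counting error only. Calls were tested on simulated lists. Python 3.11.15 with pandas 2.3.3 and scipy 1.17.1 was used.

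All 10 genes are named, with the lost and the retained distal H3K27ac region of highest mean WT fold in each window, every gained one, p53 regions at starts and the highest MLL4 peak. Of the other pathway genes, up to 4 are named by lost regions and up to 4 by promoter H3K27ac, and BPGM, PGK1 and the gene-body regions were chosen after their values were seen. The genes and lists were chosen with earlier results of these data known. The alternatives tried were peaks of −log10 q-value 5 or more, lists of equal length, a 20 kb window, a stricter overlap, a 2 kb promoter, regions without H3K4me3, peak width, leaving out each library and, added after seeing the data, pairs of libraries of the same or crossed number.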

Additional observations from a re-analysis of the deposited data

How the results depend on the processing

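Of 68 alternative values for 10 results, 49 stayed within a set band around the reported value, 16 moved beyond it and 3 changed sign. The band was the Wilson interval for shares and 52.0 to 117 for the count of MLL4 regions. For promoter medians it was the standard deviation over pairs of single WT and KO libraries. The 49 include means over paired libraries, which equal the reported medians by construction. The share of distal H3K27ac regions lost was 63.7% at a −log10 q-value of at least 5, 22.8% with lists of equal length, and from 54.9% to 65.9% without 1 library. For distal H3K4me1 it was 96.2%, 55.6% and, without regions that overlap H3K4me3, 91.5%. MLL4 regions of WT numbered 78, and 19 at the stricter q-value and 5 with lists of equal length, where the KO list of 278 peaks sets the length. At the stricter q-value MLL1 loss was 16.7% and gain 28.6%. Without 1 library, H3K4me3 loss ran from 11.4% to 24.4%, p53 loss from 12.9% to 30.0% and p53 gain from 30.6% to 54.8%. The H3K27ac promoter median was -0.14 for peak width in place of fold and from -1.74 to -0.92 without 1 library. The H3K4me3 promoter median was 0.09 for width, and from -0.23 to 0.11 without 1 library, so it has no stable sign. The cause of these shifts was not tested. Libraries were also compared as pairs of the same number (a replicate block chosen after seeing the data), without a test. The mean of the pairs gives the reported medians by construction, -1.37 for H3K27ac and -0.05 for H3K4me3, and the separate pairs gave -1.34 and -1.13 for H3K27ac and -0.09 and -0.10 for H3K4me3. The labels do not say what a number shares, and the deviations of same-numbered libraries had a correlation over genes of -0.13 for H3K27ac, -0.23 for H3K4me3 and 0.01 for p53. H3K27ac was lower in both pairs at 10 genes with either the labelled or the crossed pairing, and H3K4me3 at 4 with the labelled and 3 with the crossed pairing. Read depth is unknown, and a peak below the calling limit counts as absent.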
